A study of Mus musculus with 6 samples.

Results

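Eosinophil, basophil and mast cell genes were examined in LT-CML stem cells of mice with and without *Gdpd3*, a lysophospholipase D gene. The 10 genes were taken by name from the deposited expression table of 36976 genes: *Prg2*, *Epx*, *Ccr3*, *Il5ra*, *Cpa3*, *Mcpt8*, *Ms4a2*, *Fcer1a*, *Gzmb* and *Il1rl1*. All 10 were listed and passed the filter on low values. RNA-Seq values existed for 6 libraries of C57BL/6 mice, 3 from Gdpd3+/+ mice (replicates 1, 2 and 3) and 3 from Gdpd3-/- mice (replicates 5, 6 and 7). Mice of both groups carried *SCL-tTA* and *TRE-BCR-ABL1*, so that BCR-ABL1 was switched on in *SCL*-expressing blood cells by stopping doxycycline, and marrow was taken 5 weeks later. The Gdpd3-/- mice carried a small deletion made with Cas9 in zygotes. Gdpd3+/+ libraries drew on 34 mice (22 males, 12 females) and Gdpd3-/- libraries on 10 mice (5 males, 5 females), and the labels do not say which animals entered which library. Cells were sorted as CD150+CD48-CD135- LSK, that is, negative for a lineage mix against CD4, CD8a, B220, Mac1, Gr-1 and TER119 and positive for Sca-1 and cKit.

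Eosinophils, basophils and mast cells are granulocytes of allergic and anti-parasite responses that arise from myeloid progenitors under the control of GATA and C/EBP factors. Eosinophils store the toxic granule proteins major basic protein (*Prg2*) and eosinophil peroxidase (*Epx*), grow under IL-5 and follow eotaxins through *Ccr3*. Basophils and mast cells bind IgE through the receptor FcεRI and store proteases bound to the proteoglycan serglycin, and mast cells, unlike most mature blood cells, keep cKit on their surface.

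The 10 genes split by lineage. All 4 eosinophil genes lay lower in every Gdpd3-/- library than in any Gdpd3+/+ library, with log2 fold changes of −1.49 (*Prg2*) to −2.54 (*Il5ra*), and none of the 4 passed the test across all genes (all 4 had an unadjusted p under 0.05, limma). Of the 6 basophil and mast cell genes, *Cpa3* rose 3.39-fold and *Gzmb* 8.14-fold (both adjusted p under 0.05), *Fcer1a* lay higher in all Gdpd3-/- libraries without passing the test, and *Mcpt8*, *Ms4a2* and *Il1rl1* overlapped between the genotypes. Libraries were compared by limma on log2(FPKM + 0.1) over 24689 genes, with adjusted p-values by Benjamini-Hochberg. FPKM is a level scaled to transcript length and library size, so it can be compared between genes. Of all genes tested, 1.09% were called higher and 0.616% lower in Gdpd3-/- cells at an adjusted p under 0.05, so the 2 called among 10 stand beside those shares. Every Gdpd3-/- library lay above every Gdpd3+/+ library for 23.5% of all genes and below for 8.27%, beside 3 and 4 of the 10. An unadjusted p under 0.05 (limma) was found for 5493 of the 24689 genes, beside 7 of the 10. In these sorted bulk cells, fewer cells of a type and less RNA per cell cannot be told apart.

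**Figure D1:**
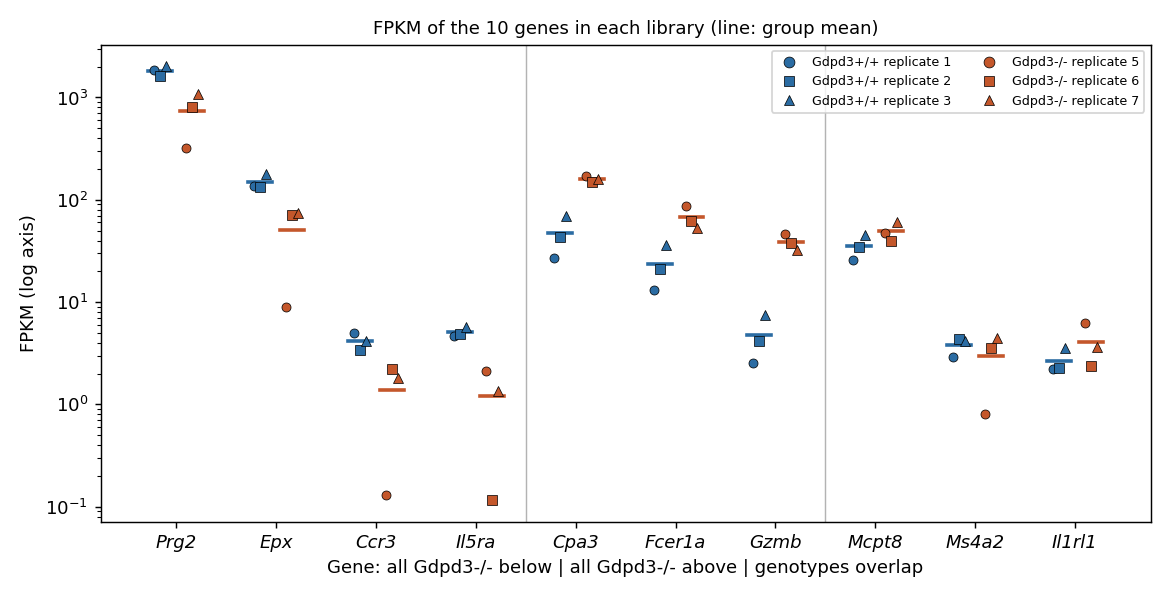
FPKM of each of the 10 genes (log axis) in the 3 Gdpd3+/+ libraries (blue) and the 3 Gdpd3-/- libraries (orange), with a line at each group mean. *Prg2*, *Epx*, *Ccr3* and *Il5ra* lie lower in all Gdpd3-/- libraries, *Cpa3*, *Fcer1a* and *Gzmb* higher, and the last 3 genes overlap.

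Promoter sequences are shown for *Cpa3* and *Gzmb*, the genes that rose, and for *Il5ra* and *Epx*, a receptor and a granule gene of the eosinophil set, so that both directions can be compared. Each run holds the 250 bases before the start site in RefSeq on GRCm38.p6, read 5′ to 3′ on the strand of the gene (minus for all 4): chr3:20242182-20242431 for *Cpa3*, chr14:56262335-56262584 for *Gzmb*, chr6:106749038-106749287 for *Il5ra* and chr11:87875537-87875786 for *Epx*. Capitals mark matches to GATAA, a core that GATA factors bind, or to TTGCNNAA, a form of the C/EBP site, on either strand.
Cpa3: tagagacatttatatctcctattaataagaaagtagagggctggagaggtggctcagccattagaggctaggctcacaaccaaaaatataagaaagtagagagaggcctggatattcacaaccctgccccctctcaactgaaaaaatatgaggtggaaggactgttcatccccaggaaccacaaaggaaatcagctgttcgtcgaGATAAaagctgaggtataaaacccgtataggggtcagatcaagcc
Gzmb: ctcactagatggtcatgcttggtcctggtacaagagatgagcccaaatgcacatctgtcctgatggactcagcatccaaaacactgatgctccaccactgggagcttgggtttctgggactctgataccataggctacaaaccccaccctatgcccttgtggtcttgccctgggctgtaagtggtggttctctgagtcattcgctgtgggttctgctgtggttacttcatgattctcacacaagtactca
Il5ra: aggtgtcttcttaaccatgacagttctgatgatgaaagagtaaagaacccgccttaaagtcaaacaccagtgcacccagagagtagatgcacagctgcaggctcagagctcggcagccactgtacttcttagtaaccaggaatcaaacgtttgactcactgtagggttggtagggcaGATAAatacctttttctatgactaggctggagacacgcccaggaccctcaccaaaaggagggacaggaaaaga
Epx: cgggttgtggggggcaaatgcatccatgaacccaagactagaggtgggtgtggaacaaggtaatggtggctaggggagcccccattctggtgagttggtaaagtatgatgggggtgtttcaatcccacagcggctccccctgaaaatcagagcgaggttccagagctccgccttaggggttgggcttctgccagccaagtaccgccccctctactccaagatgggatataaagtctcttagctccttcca

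The *Cpa3* and *Il5ra* windows each held 1 GATAA match and the *Gzmb* and *Epx* windows none, and none of the 4 held the C/EBP letters. Promoters were found for 9 of the 10 genes, of which 6 held a GATAA match in at least 1 window (*Ccr3*, *Il5ra*, *Cpa3*, *Ms4a2*, *Fcer1a*, *Il1rl1*) and 2 a TTGCNNAA match (*Fcer1a*, *Il1rl1*). Among all 32851 listed promoters, 22.6% held GATAA and 9.56% held TTGCNNAA in the same 250 bases. GATAA matches thus stood before genes that lay lower and before genes that lay higher.

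Depth and the levels of some genes outside the 10 also differed between the libraries of the 2 genotypes. Apart from *Gdpd3* itself, the part of genotype in these differences was not tested. Depth, inferred from the steps of the FPKM values as covered bases, was 4.98 to 6.28 gigabases in Gdpd3+/+ and 2.13 to 3.64 in Gdpd3-/- libraries. *Gdpd3* itself had 2.95 to 7.30 FPKM in Gdpd3+/+ and 0.0129 to 0.681 in Gdpd3-/- libraries. Markers used in the sort were present (*Kit* at 108 to 136 FPKM, *Ly6a*, which encodes Sca-1, at 342 to 563), and *Flt3*, which encodes CD135, rose from 10.5 to 40.4 mean FPKM (adjusted p = 0.00562, limma), while the cells were sorted as CD135-. Neutrophil granule genes had a summed FPKM over 11 genes of 29968 to 32821 in Gdpd3+/+ and 8442 to 13991 in Gdpd3-/- libraries. Transcripts of 12 skeletal muscle genes summed to 842 to 1235 FPKM in Gdpd3+/+ and to 10773, 15503 and 2067 FPKM in Gdpd3-/- replicates 5, 6 and 7. Pearson's r across genes was at least 0.973 between Gdpd3+/+ libraries and at most 0.865 between Gdpd3-/- libraries, where genes are not independent replicates. Between genotypes, Gdpd3-/- replicate 7 had r of 0.930 to 0.933 with the Gdpd3+/+ libraries. That is above its r with Gdpd3-/- replicates 5 (0.865) and 6 (0.831). Replicates 5 and 6 had r of 0.799 to 0.840 with the Gdpd3+/+ libraries.

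The eosinophil genes are taken first. *Prg2* (mm9 chromosome 2, 84820618 to 84823789, forward strand) encodes major basic protein, the core of the eosinophil granule, and was the most abundant of the 10 genes in both genotypes. It reached 1851, 1628 and 2016 FPKM in the Gdpd3+/+ libraries (always in the order of replicates 1, 2, 3) against 320.3, 806 and 1073 FPKM in the Gdpd3-/- libraries (in the order 5, 6, 7). All Gdpd3-/- libraries were lower, replicate 5 by the most. On average this was 1832 ± 195 FPKM in Gdpd3+/+ and 733 ± 382 FPKM in Gdpd3-/- cells (SD, n = 3 each), at ranks 40 and 96 of the whole table. A log2 fold change of −1.49 resulted (standard error 0.42, adjusted p = 0.113, limma), and it passed in 1 alternative, without Gdpd3-/- replicate 7 (adjusted p = 0.0414, range over all alternatives 0.0414 to 0.345). Without replicate 5 it was −0.97.

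*Epx* (chromosome 11, reverse strand), the eosinophil peroxidase, had 135, 133 and 179 FPKM in Gdpd3+/+ libraries. In Gdpd3-/- replicates 5, 6 and 7 it had 8.95, 70.7 and 73.5 FPKM, so that replicate 5 lay far below the other Gdpd3-/- libraries. The group means were 149 ± 26.1 and 51.1 ± 36.5 FPKM (SD, n = 3 each), with a log2 fold change of −2.03 (standard error 0.79, adjusted p = 0.197, limma). Without replicate 5 the log2 fold change was −1.03.

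The receptors were expressed at a far lower level. *Ccr3*, the eotaxin receptor (chromosome 9), had 5.02, 3.38 and 4.13 FPKM in Gdpd3+/+ and 0.129, 2.21 and 1.80 FPKM in Gdpd3-/- libraries. The value in replicate 5 corresponds to about 6.0 reads of 150 bases, against 463 to 552 reads in Gdpd3+/+ libraries. *Il5ra*, the α chain that binds IL-5 (chromosome 6), had 4.67, 4.86 and 5.77 FPKM in Gdpd3+/+ libraries. In Gdpd3-/- replicates 5, 6 and 7 it had 2.12, 0.117 and 1.36 FPKM, the lowest here being replicate 6 with about 9.3 reads. No genotype overlap was seen for either receptor, but the Gdpd3-/- library that was lowest differed between them. The log2 fold changes were −2.08 for *Ccr3* (standard error 0.87, adjusted p = 0.224) and −2.54 for *Il5ra* (standard error 0.83, adjusted p = 0.145) in the same limma test. Without replicate 5 the *Ccr3* change was −1.01, and without replicate 6 the *Il5ra* change was −1.52.

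Other eosinophil genes, from a list of 8, lay lower as well. All 8 were tested, 6 lay below in every Gdpd3-/- library, none lay above, and none passed the adjusted test (5 had an unadjusted p under 0.05, limma). Their median log2 fold change was −1.67, beside 0.24 for all genes. Of all genes, 8.27% lay below in every Gdpd3-/- library and 23.5% above. An unadjusted p under 0.05 (limma) was found for 5493 of 24689. *Prg3*, the neighbour and homologue of *Prg2* only 4563 bases away in mm9, had 109, 94.7 and 119 FPKM in Gdpd3+/+ and 9.62, 56.4 and 71.4 FPKM in Gdpd3-/- libraries. The eosinophil-associated ribonucleases *Ear1*, *Ear2* and *Ear6* had mean levels of 474, 421 and 284 FPKM in Gdpd3+/+ and of 169, 155 and 112 FPKM in Gdpd3-/- libraries (log2 fold changes of −1.96, −1.69 and −1.64). Without Gdpd3-/- replicate 5 the log2 fold changes of *Ear1*, *Ear2* and *Ear6* were −1.04, −1.17 and −0.91. That of *Prg3* was −0.76, against −1.66 with all libraries. Reads of the *Ear* family, whose members are nearly identical, could be split among them by the authors' counting. *Siglecf*, a surface lectin of eosinophils named after its values were seen, had the smallest adjusted p of the list at 0.0648 (log2 fold change −1.86, standard error 0.38, limma). Without replicate 5 the *Siglecf* change was −1.49. In each of these genes Gdpd3-/- replicate 5 was lowest and replicate 7 highest of its group.

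The basophil and mast cell genes are taken next, first those that rose. *Gzmb* (mm9 chromosome 14, 56877693 to 56881097, reverse strand) encodes granzyme B, a serine protease known from cytotoxic lymphocytes and also made by mast cells and basophils. It had 2.57, 4.20 and 7.41 in Gdpd3+/+ and 45.9, 37.5 and 32.0 FPKM in Gdpd3-/- libraries. The lowest Gdpd3-/- library stood well above the highest Gdpd3+/+ library. On the log2 scale *Gzmb* rose by 3.11 (standard error 0.37, adjusted p = 0.0242, limma). The adjusted p rose to 0.117, 0.149 and 0.0633 without Gdpd3+/+ replicate 1, Gdpd3+/+ replicate 2 and Gdpd3-/- replicate 5, to 0.121 with array weights, to 0.0577 with no intensity trend and to 0.125 with Gdpd3-/- replicates 5 and 6 left out (range over all alternatives 0.0116 to 0.149).

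*Cpa3* (chromosome 3, 20115516 to 20142080, reverse strand) encodes carboxypeptidase A3, a protease of mast cell and basophil granules. It had 27.2, 43.7 and 69.6 FPKM in Gdpd3+/+ and 169, 148 and 159 FPKM in Gdpd3-/- libraries. The Gdpd3-/- values were close together (mean 159 ± 10.6, SD, n = 3) and the Gdpd3+/+ values spread (46.9 ± 21.4, SD, n = 3). On the log2 scale *Cpa3* rose by 1.86 (standard error 0.31, adjusted p = 0.0483, limma). That call held in 4 of 16 alternatives, with adjusted p from 0.0126 (TPM scaling) to 0.222 (array weights). It was 0.157, 0.221 and 0.0686 without Gdpd3+/+ replicates 1, 2 and 3, 0.0966 and 0.0691 without Gdpd3-/- replicates 5 and 6, and 0.0406 without replicate 7.

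*Fcer1a* encodes the IgE-binding α chain of FcεRI (chromosome 1). Levels of 13.2, 20.9 and 36.2 FPKM in Gdpd3+/+ stood against 87.2, 61.6 and 53.0 FPKM in Gdpd3-/- libraries. The groups did not overlap, and the log2 fold change of 1.61 did not pass (standard error 0.37, adjusted p = 0.0821, limma, range over all alternatives 0.0204 to 0.330). Within Gdpd3+/+ the genes *Cpa3*, *Fcer1a* and *Gzmb* were each lowest in replicate 1 and highest in replicate 3. The ratio of *Cpa3* to *Fcer1a* FPKM was 1.92 to 2.10 in these libraries and 1.94 to 3.01 in Gdpd3-/- libraries.

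The other subunits of FcεRI overlapped between the genotypes. *Ms4a2*, the β chain that amplifies the signal, had 2.88, 4.40 and 4.13 FPKM in Gdpd3+/+ and 0.799, 3.56 and 4.48 FPKM in Gdpd3-/- libraries. Replicate 5 was the lowest of all and replicate 7 the highest, so the genotypes overlapped (log2 fold change −0.64, standard error 0.62, adjusted p = 0.539, limma). The sign turned to 0.092 without replicate 5. *Fcer1g*, the shared γ chain that many Fc receptors use, had a mean of 132 FPKM in Gdpd3+/+ and 130 in Gdpd3-/- libraries, with a log2 fold change of −0.06 that became 0.22 under TPM scaling. The ratio of *Fcer1a* to *Ms4a2* FPKM was 4.58, 4.74 and 8.77 in Gdpd3+/+ and 109, 17.3 and 11.8 in Gdpd3-/- libraries, without overlap. This ratio does not depend on the scaling of a library, and its highest value rests on about 31.3 *Ms4a2* reads in replicate 5.

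*Mcpt8*, a protease used as a basophil marker in mice, had 25.9, 34.6 and 45.2 FPKM in Gdpd3+/+ and 47.4, 39.7 and 61.0 FPKM in Gdpd3-/- libraries. The genotypes overlapped at replicate 6 (log2 fold change 0.50, standard error 0.24, adjusted p = 0.274, limma). *Il1rl1*, the IL-33 receptor ST2 of mast cells, basophils and innate lymphoid cells, had 2.21, 2.29 and 3.56 FPKM in Gdpd3+/+ and 6.18, 2.37 and 3.65 FPKM in Gdpd3-/- libraries. Here replicate 5 alone stood apart (log2 fold change 0.51, standard error 0.39, adjusted p = 0.477, limma).

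**Figure D2:**
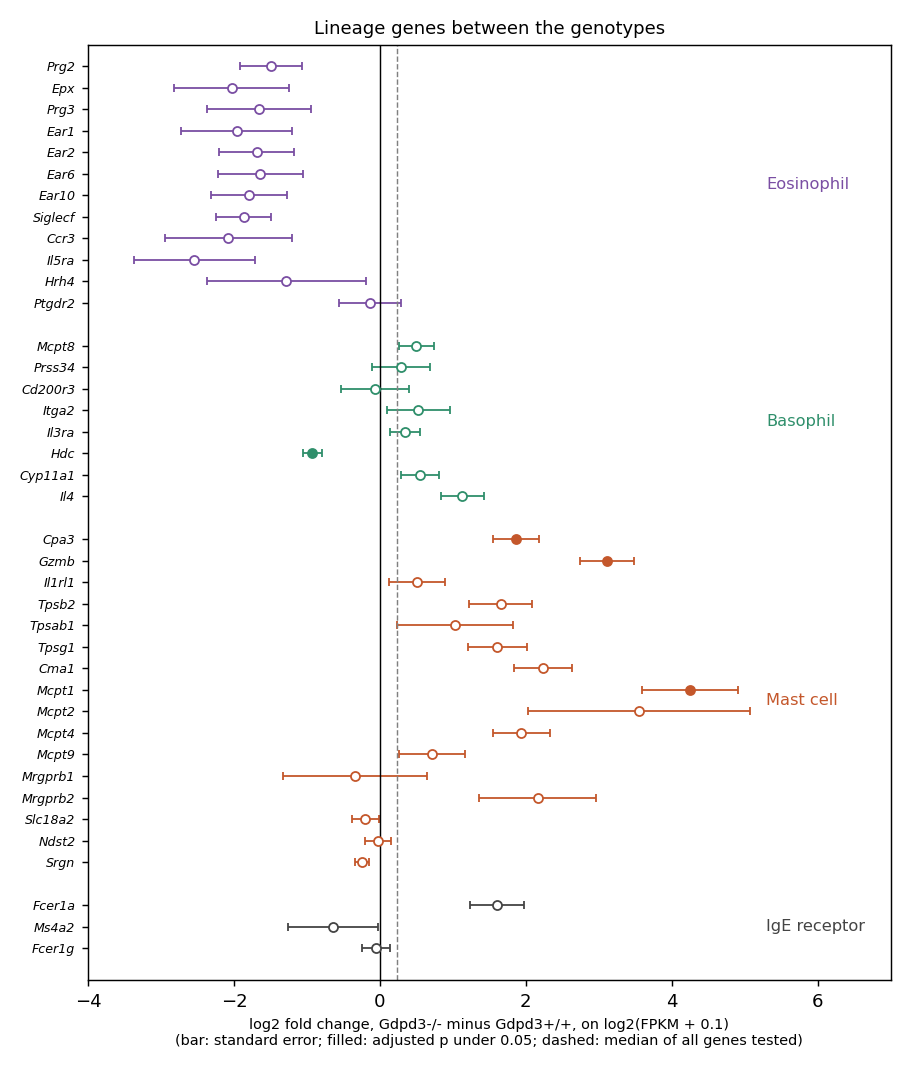
Limma log2 fold changes (Gdpd3-/- minus Gdpd3+/+, on log2(FPKM + 0.1)) with standard errors for the 10 genes, their lineage lists and *Fcer1g*; filled points have an adjusted p under 0.05 and the dashed line is the median of all genes, 0.24. Eosinophil genes lie left of 0, most mast cell proteases right of it, and basophil genes on both sides, with *Hdc* called lower.

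Mast cell genes beyond the 10 were listed in 13 rows, all tested. *Mcpt2* and *Mcpt9* passed the filter on low values through the Gdpd3-/- libraries alone. Of the other 11, 5 lay above in every Gdpd3-/- library, 1 lay below and 5 overlapped, with a median log2 fold change of 1.61, and 1 was called. For all genes, 23.5% lay above and 8.27% below, with a median of 0.24. The tryptase *Tpsb2* had 34.4, 54.9 and 101 FPKM in Gdpd3+/+ and 237, 218 and 116 FPKM in Gdpd3-/- libraries (adjusted p = 0.0974, limma). The chymases *Cma1* and *Mcpt4* had mean levels of 40.3 and 17.3 FPKM in Gdpd3+/+ and of 179 and 62.4 FPKM in Gdpd3-/- libraries, with adjusted p of 0.0518 and 0.0659 in the same limma test. *Mcpt1*, a mucosal chymase, was called higher (adjusted p = 0.0417, limma): it was listed at 0 in Gdpd3+/+ replicates 1 and 2 and at 0.349 FPKM in replicate 3, against 3.37, 2.90 and 2.87 FPKM in Gdpd3-/- libraries. Without Gdpd3-/- replicate 7 it kept its call (0.0303), and leaving out any other library ended it (0.0591 to 0.212). *Srgn*, the core protein of serglycin that many blood cells make, was the most abundant of the list and lay lower, at 571 and 481 mean FPKM, with a log2 fold change of −0.25 that became 0.03 under TPM scaling. Tryptase and chymase genes have similar copies, so reads may have been split among them.

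Basophil genes beyond *Mcpt8* went in both directions. Of 8 listed, 7 were tested, 2 lay above in every Gdpd3-/- library, 1 lay below, and the list median was 0.34. These stand beside 23.5% above, 8.27% below and a median of 0.24 for all genes. *Hdc*, which makes histamine, fell from 13.6 ± 0.550 to 7.15 ± 0.798 FPKM (SD, n = 3 each, log2 fold change −0.92, adjusted p = 0.0362, limma), and it lost its call without any one Gdpd3+/+ library, reaching 0.244 without replicate 3. *Il4* had 4.66 and 10.8 mean FPKM without overlap (adjusted p = 0.0952, limma), while *Prss34*, a basophil protease, and *Cyp11a1*, a steroid enzyme, overlapped at 24.2 and 31.8 and at 12.4 and 17.3 mean FPKM.

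**Figure D3:**
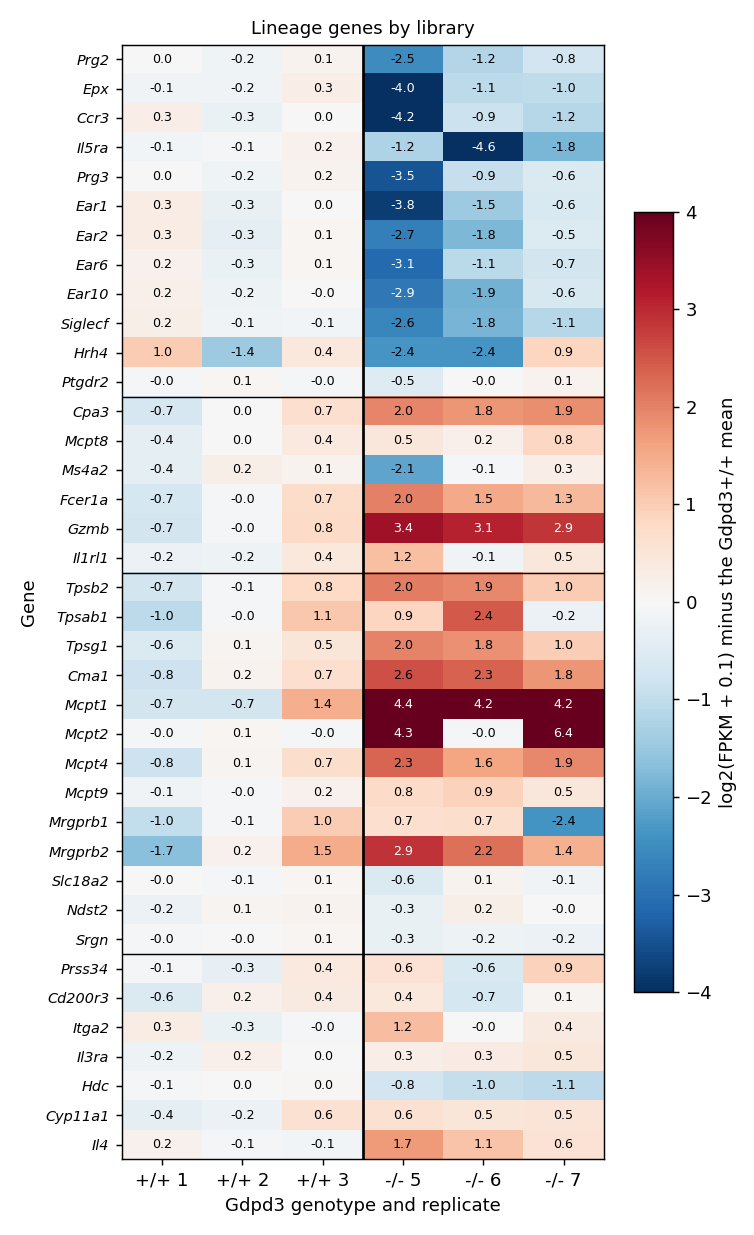
Log2(FPKM + 0.1) in each library minus the mean of the 3 Gdpd3+/+ libraries (numbers in the cells, in log2 units; colours end at ±4) for all 38 tested genes of the eosinophil, basophil and mast cell sets, in 4 blocks. Of 12 eosinophil genes at the top, 10 are below 0 in all Gdpd3-/- libraries, and replicate 5 is lowest, or level with the lowest, in 11. The blocks under it hold the 6 basophil and mast cell genes of the 10 (4 above 0 in all Gdpd3-/- libraries), 13 further mast cell genes (7 above, 1 below) and 7 further basophil genes (3 above, 1 below). The 7 mast cell genes above 0 include *Mcpt9*, which passed the filter on low values through the Gdpd3-/- libraries alone. *Mcpt2*, in the same block but not among those 7, passed the filter in the same way. These counts compare with the Gdpd3+/+ mean only, and their share over all genes was not computed.

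Within a library, eosinophil and mast cell genes could be set against each other without any scaling. *Prg2* exceeded *Cpa3* by 68.0, 37.2 and 29.0 times in Gdpd3+/+ replicates 1, 2 and 3, and by 1.89, 5.44 and 6.73 times in Gdpd3-/- replicates 5, 6 and 7. *Epx* exceeded *Cpa3* by 2.57 to 4.97 times in Gdpd3+/+ libraries and lay below it in each Gdpd3-/- library, at 0.0528 to 0.478 of its FPKM. The pair of eosinophil granule genes kept a ratio of *Prg2* to *Epx* of 11.2 to 14.6 in 5 libraries, with 35.8 in Gdpd3-/- replicate 5. The order of levels changed accordingly: after *Prg2* came *Epx*, *Cpa3*, *Mcpt8* and *Fcer1a* in Gdpd3+/+ cells, and *Cpa3*, *Fcer1a*, *Epx* and *Mcpt8* in Gdpd3-/- cells. These pairs were chosen after their values were seen and were not tested.

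*Gzmb* and *Mcpt8* belong to the chymase and granzyme cluster of chromosome 14, which holds proteases of mast cells, basophils, neutrophils and lymphocytes. In mm9 the genes lie 174 kb apart. From *Cma1* towards *Gzmb*, the mast cell chymases *Cma1*, *Mcpt1* and *Mcpt4* lay higher in every Gdpd3-/- library, *Mcpt9* had at most about 6.7 reads in any library, and *Mcpt2*, with 1 Gdpd3-/- library at 0, overlapped. *Ctsg*, the neutrophil protease cathepsin G next to *Mcpt8*, went the other way, with 582, 665 and 702 FPKM in Gdpd3+/+ and 135, 274 and 296 FPKM in Gdpd3-/- libraries (log2 fold change −1.54, standard error 0.30, adjusted p = 0.059, limma). Granzymes between *Ctsg* and *Gzmb* (*Gzmc*, *Gzmd*, *Gzme*, *Gzmf* and *Gzmg*) were at or near 0 and not tested apart from *Gzmc*, which was listed at 0 in all but Gdpd3-/- replicate 7.

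**Figure D4:**
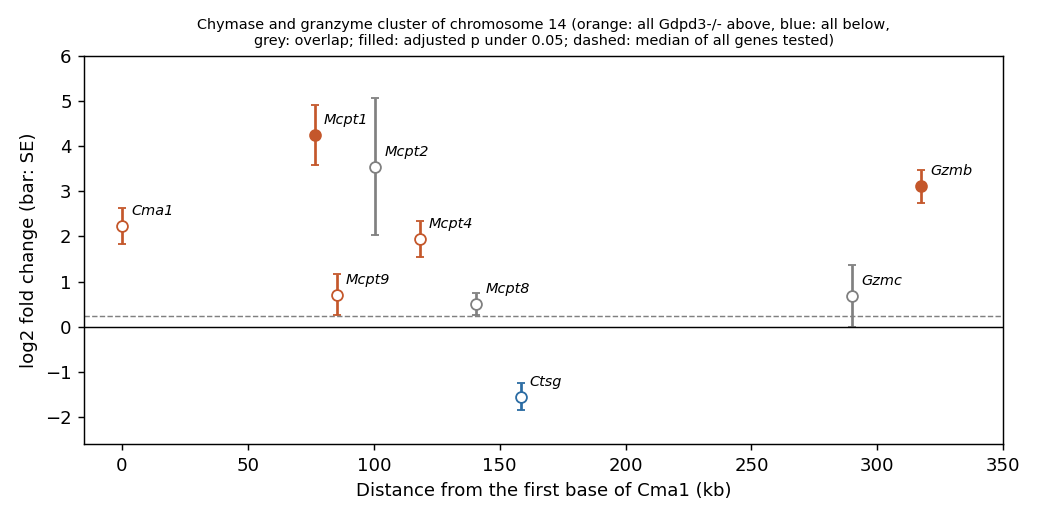
Log2 fold change with standard error of the tested genes in the chromosome 14 cluster against distance from the first base of *Cma1* in kb. *Mcpt1* and *Gzmb* (filled) were called higher, *Ctsg* lies below 0 between *Mcpt8* at 0.50 and *Gzmb* at 3.11.

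Partner and signalling genes of these receptors were not called. Of 20 listed genes for FcεRI, the IL-5 receptor and the IL-33 receptor, none was called (4 had an unadjusted p under 0.05, limma), and 14 overlapped between the genotypes. These counts stand beside all 24689 genes tested, of which 5493 had an unadjusted p under 0.05 (limma) and 16841 overlapped. *Csf2rb*, the β chain that *Il5ra* needs to signal, had 19.7 ± 0.813 FPKM in Gdpd3+/+ and 28.2 ± 2.06 FPKM in Gdpd3-/- libraries (SD, n = 3 each), opposite in direction to *Il5ra* (log2 fold change 0.51, standard error 0.11, adjusted p = 0.0665, limma). Its near-copy *Csf2rb2* may share reads. *Il1rap*, the partner of *Il1rl1*, overlapped at 3.46 and 2.87 mean FPKM. *Plcg2*, *Myd88* and *Irak1*, which pass these signals on, differed by at most 0.30 on the log2 scale, while *Lat2*, an adaptor of FcεRI, lay higher in every Gdpd3-/- library (19.3 and 38.9 mean FPKM, adjusted p = 0.078, limma) and *Jak2*, a kinase of the IL-5 receptor, lower in every one (24.7 and 14.5 mean FPKM, adjusted p = 0.261). The sign of *Plcg2* flipped under median centring and quantile normalization.

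Transcription factors of the lineages included 2 called of 14, both lower. Of the 14, 3 lay above in every Gdpd3-/- library, 4 below and 7 overlapped, with a median log2 fold change of −0.013. Of all genes, 1.09% were called higher and 0.616% lower, and 23.5% lay above and 8.27% below. *Cebpe*, which drives granule genes of neutrophils and eosinophils, had 13.0, 15.5 and 13.5 FPKM in Gdpd3+/+ and 4.54, 4.01 and 5.37 FPKM in Gdpd3-/- libraries. It fell 3.02-fold (log2 fold change −1.58, standard error 0.16, adjusted p = 0.0197, limma), with the call lost without any one Gdpd3+/+ library (up to 0.153, without replicate 1). *Xbp1*, needed by eosinophil precursors and plasma cells, fell from 265 to 135 mean FPKM (adjusted p = 0.0334, limma, up to 0.197 without Gdpd3+/+ replicate 1, and lost also without Gdpd3+/+ replicates 2 and 3 or Gdpd3-/- replicate 5). *Gata2*, a factor of mast cells, basophils and stem cells, had 48.3 ± 3.77 and 57.8 ± 3.03 FPKM (SD, n = 3 each, adjusted p = 0.195), and *Gata1*, needed for eosinophils, had 27.0 ± 1.99 and 19.4 ± 7.30 (adjusted p = 0.326, same limma test). *Id2* had 46.2 and 36.6 and *Spi1* 36.8 and 40.7 mean FPKM, and neither passed.

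Most of the ligands, 6 of 9, averaged under 1 FPKM in the sorted cells themselves. Of 9 listed, 7 were tested, none was called or free of overlap, and *Il3* was listed at 0 throughout. *Tslp*, *Ccl24* and *Ccl5* had the highest levels, at 4.94, 2.74 and 0.721 mean FPKM in Gdpd3+/+ and 2.86, 5.23 and 2.62 in Gdpd3-/- libraries.

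Genes of other cells that share markers with the 10 were read beside them. The counts below stand beside all 24689 genes tested, of which 1.09% were called higher and 0.616% lower. Of these genes, 23.5% lay above in every Gdpd3-/- library, 8.27% lay below, and 5493 had an unadjusted p under 0.05 (limma). For *Gzmb*, 10 of 15 NK and T cell genes were tested and 1 was called: *Gzma*, another granzyme, rose from 0.150, 0.560 and 0.330 to 10.6, 4.88 and 3.81 FPKM (adjusted p = 0.0321, limma), a call lost without any Gdpd3+/+ library or Gdpd3-/- replicate 5 (up to 0.174). The defining genes *Cd3e*, *Cd3g*, *Ncr1* and *Prf1* were at most 0.879 FPKM in any library and each at 0 in at least 2 libraries, and *Cd8a* was near 0 throughout. *Klrd1*, which encodes the NK receptor chain CD94, lay higher in every Gdpd3-/- library, at 0.157, 0.323 and 0.051 FPKM in Gdpd3+/+ and 0.659, 2.55 and 1.86 FPKM in Gdpd3-/- libraries (log2 fold change 2.64, standard error 0.65, adjusted p = 0.0891, limma). *Nkg7*, the most abundant of the list, lay lower, so the summed level of the 15 genes was 384 to 459 FPKM in Gdpd3+/+ and 163 to 322 FPKM in Gdpd3-/- libraries. For *Il1rl1*, none of 8 genes of innate lymphoid and regulatory T cells was called (2 with an unadjusted p under 0.05, limma), with sums of at most 7.99 FPKM in Gdpd3+/+ and of 12.9 to 19.6 FPKM in Gdpd3-/- libraries. For *Il5ra*, which B cells can also carry, the 10 B and plasma cell genes summed to 2121 to 2745 and 1012 to 1839 FPKM, with 1 called lower (*Mzb1*, adjusted p = 0.0484, limma, lost at 0.0679 to 0.247 without any library but Gdpd3-/- replicate 7) and 5 below in every Gdpd3-/- library. The neutrophil granule genes lay lower, like most eosinophil genes. Of 11, 10 lay below in every Gdpd3-/- library and 5 were called (*Elane*, *Prtn3*, *Ltf*, *Camp* and *Ngp*), with a median of −1.61 on the log2 scale. The order of the libraries differed: in Gdpd3-/- replicates 5, 6 and 7 the neutrophil genes summed to 13991, 8442 and 9466 FPKM. The 4 eosinophil genes of the 10 summed to 331, 879 and 1150 FPKM there. The monocyte gene *Ly6c2* was called lower too, from 1752 to 588 mean FPKM (adjusted p = 0.0222, limma). The calls of these neutrophil genes and of *Ly6c2* were lost without any one Gdpd3+/+ library (adjusted p 0.148 to 0.247, limma). Those of *Camp*, *Elane* and *Ngp* were lost also without Gdpd3-/- replicate 6 (0.0533 to 0.0667). The part of neutrophil and monocyte genes in these results was not tested. Skeletal muscle genes lay above in all Gdpd3-/- libraries for 12 of 12 and were least in replicate 7 (2067 FPKM in sum). Of the Gdpd3-/- libraries, replicate 7 had the lowest level of, for example, *Fcer1a*, *Gzmb*, *Tpsb2*, *Cma1* and *Il4*. It had the highest level of *Mcpt8*, *Ms4a2*, *Mcpt2* and *Prss34*. *Cpa3*, with 159 FPKM there, and *Mcpt4* lay between the other Gdpd3-/- libraries. Whether muscle RNA had a part in these levels was not tested.

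For single genes, a two-sided exact permutation test of mean FPKM gave p = 0.1 for each of the 7 genes without overlap, the smallest p that 3 libraries against 3 can give. Relative to the median of all genes, which was 0.50 with TPM scaling, 0.086 with median centring and −0.0063 with quantile normalization, each of the 10 genes kept its side. Without Gdpd3+/+ replicate 1 no gene of the whole table passed (3356 had an unadjusted p under 0.05, limma), and without Gdpd3+/+ replicates 2 and 3 1 and 21 genes passed, *Gzmb* (adjusted p = 0.0433) and *Flt3* (0.0479) among the latter.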

How the data were processed

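RNA was measured in 6 SMART-Seq v4 libraries, read as pairs of 150 bases. The submitters' processing notes name Trimmomatic, Trim Galore, cutadapt 1.16, STAR 2.6.1a, featureCounts 1.6.1, DESeq2 and build mm9. The authors deposited FPKM values, 1 column per library, for 36976 genes. Their separate table of a DESeq2 comparison (base means, fold changes, p-values) was not used. FPKM times gene length summed to the same total in each library. It lay in whole steps (within 0.01), checked on the smallest values above 0 of each library only. The steps were taken as covered bases, so reads given here are covered bases divided by 150, approximate, and depth limits values near 0. Counts were not recovered, and no count model was run. Groups came from the genotype labels; the labels do not say that the libraries came from separate animals, so p-values measure the spread between libraries. For the test, genes averaging under 0.05 FPKM were dropped and the remaining 24689 entered limma 3.58.1 (R 4.3.3) as log2(FPKM + 0.1), with a trended prior variance, genotype as the only term and Benjamini-Hochberg adjustment. Alternatives were other pseudocounts, filters and scalings, no trend, array weights and each library left out. A fold change on this scale understates changes of low genes. Exact permutation tests used SciPy 1.17.1. The members, lists and tests were chosen with earlier results of these data known. Named genes are the 10 members, listed genes that were called, and those of highest mean FPKM (at most 4 of each lineage, partner, factor and ligand list and 2 of other cell types). *Siglecf*, *Gata1*, *Csf2rb*, *Lat2*, *Jak2*, *Klrd1*, *Il1rap*, *Cd3e*, *Cd3g*, *Ncr1*, *Prf1*, *Cd8a* and the genes of the chromosome 14 cluster were added after their values were seen. Symbols such as *Siglecf* and *Spi1* were matched by gene identifier. Gene positions are the deposited ones, on mm9, and promoters are from RefSeq on GRCm38.p6, for 9 of 10 genes (*Prg2* had no entry).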

Additional observations from a re-analysis of the deposited data

How the results depend on the processing

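No paired analysis was possible because no replicate number occurs in both genotypes. Why the counts moved was not tested. Of the 10 genes, 2 were called, and this count became 1 with a pseudocount of 1, with no filter, with median centring and with quantile normalization, and 0 with no intensity trend (5 with an unadjusted p under 0.05) or array weights (6, limma). It ranged from 0 to 3 when 1 library was left out, and was 1 with Gdpd3-/- replicates 5 and 6 left out, a fit added after seeing the data that assumes the lone Gdpd3-/- library varies like the others. Of all genes, 422 were called (270 higher, 152 lower), and 225 with a pseudocount of 1, 213 with no filter, 673 with a mean FPKM of at least 1, 3962 with TPM scaling (3708 higher, 254 lower), 153 with no intensity trend and 240 with array weights. Median centring gave 115 higher and 209 lower, and quantile normalization 119 and 206, so the larger direction turns with the scaling. Leaving out 1 library gave 0 (without Gdpd3+/+ replicate 1, where limma's unadjusted p was under 0.05 for 3356 genes) up to 3413 (without Gdpd3-/- replicate 7), and the added fit 2294. Of the listed genes beyond the 10, 13 were called, and 8 with a pseudocount of 1, 4 with no filter, 21 with a mean FPKM of at least 1, 50 with TPM scaling, 2 with no intensity trend, 0 to 48 with 1 library left out and 21 in the added fit. Among log2 fold changes of the 10 genes, *Ms4a2* reversed to 0.092 without Gdpd3-/- replicate 5 (range with 1 library left out −1.08 to 0.092) and to 0.25 in the added fit, and the other 9 kept their sign in all 16 alternatives.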
